A study of Homo sapiens with 9 samples.

Results

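The VEGF family and 2 genes best known from endothelium, ESM1 and FLI1, are described here across the 3 media given to MDA-MB-231 cells, a human triple-negative breast cancer line with mesenchymal features. The 9 genes, of 58735 in the deposited table, are the ligands VEGFA, VEGFB, VEGFC and PGF, the receptors KDR, FLT1 and FLT4, and ESM1 and FLI1, each matched by its symbol. They were chosen with their levels in these same libraries known, so their levels and fold changes are given as a description, no p-value is printed for any of them, and counts of members past a threshold stand only beside the same counts over all genes. TIS CM was medium taken from MDA-MB-231 cells made senescent with 100 ng/ml of the microtubule drug nocodazole for 72 h (TIS stands for therapy-induced senescence), Cont CM was medium taken from non-senescent MDA-MB-231 cells, and No CM was medium that no cells had conditioned. Each medium was given to 3 samples of the line, labelled replicates 1 to 3, and poly-A RNA was sequenced. All recipient cells carried the genotype label WT, were grown in DMEM with 10% serum and came from 1 cell line, so they are a model of that line alone. The sample labels give 72 h in the medium, while the series' design text gives 48 h. Nothing states that the replicates were separate cultures, so a p-value reflects no more than the spread among these libraries, which may be technical.

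VEGF ligands are secreted growth factors that bind receptor tyrosine kinases on endothelial cells. VEGFA signals mainly through KDR (VEGFR2) to drive vessel growth, with FLT1 (VEGFR1) also binding VEGFB and PGF, and VEGFC acts through FLT4 (VEGFR3) on lymphatic vessels. ESM1, also called endocan, is a secreted proteoglycan that carries a dermatan sulfate chain and is induced by VEGFA in endothelial tip cells, and FLI1 is an ETS-family transcription factor of endothelial and blood cells. Breast cancer cells are known as a source of VEGF ligands, which makes the ligand genes a usual readout of a tumour cell's angiogenic programme.

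The libraries held 32636708 to 39189036 fragments assigned to genes, and 22637 to 23295 genes were detected in each. Levels are given in FPKM, fragments scaled by gene length in kilobases and by library size, and 1 fragment was worth between 0.0255 and 0.0303 FPKM on a gene of 1 kb. The trend of the values with GC content and gene length held 17.7% of the variance around the gene means in Cont CM replicate 2. The other 8 libraries held 0.675% to 5.99%. For replicates 1 to 3, r with GC content was 0.07, 0.11 and 0.22 in TIS CM and -0.03, -0.41 and -0.20 in Cont CM. In No CM it was -0.02, 0.18 and 0.19. GC content of the longest transcript was 40.1% for ESM1, 42.7% for FLI1 and 66.7% for VEGFB, beside a median of 48.5% over tested genes, so values with that trend removed are given beside those 3 genes.

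Upstream sequence is shown for a ligand, for a receptor and for ESM1, because VEGFC and ESM1 differed between the media and KDR was the one kinase receptor with a clear signal. RefSeq start sites on GRCh38.p14 were at hand for 6 of the 9 genes, which leaves out VEGFA, FLT4 and FLI1. The 250 bases before the start are given 5′ to 3′ for VEGFC (minus strand, chr4:176792923-176793172) and KDR (minus strand, chr4:55125596-55125845), and the last 30 bases before the start for ESM1 (minus strand, chr5:54985594-54985623). Capitals mark every match, on either strand, to the motifs searched. These were ACGTG (the core of a hypoxia response element), CGGAA (the GGAA core of ETS sites with a C before it), TGANTCA (AP-1) and GGGCGG (the GC box). GGAA without that C was not searched and is left unmarked where it occurs.
VEGFC: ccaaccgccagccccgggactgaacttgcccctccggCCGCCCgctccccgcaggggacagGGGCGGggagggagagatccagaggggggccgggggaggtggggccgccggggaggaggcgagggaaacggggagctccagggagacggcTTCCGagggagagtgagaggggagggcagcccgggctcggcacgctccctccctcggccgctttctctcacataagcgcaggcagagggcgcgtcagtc
KDR: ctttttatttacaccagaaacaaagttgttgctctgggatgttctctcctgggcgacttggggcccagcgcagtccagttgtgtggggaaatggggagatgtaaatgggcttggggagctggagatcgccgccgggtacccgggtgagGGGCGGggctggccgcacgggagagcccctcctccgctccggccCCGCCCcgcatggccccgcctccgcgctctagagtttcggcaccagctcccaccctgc
ESM1: taaaactcataaACGTGtaggcagaggctc
The VEGFC window held 2 GC boxes and 1 CGGAA, and the KDR window held 2 GC boxes. The full 250-base ESM1 window held 1 match, the ACGTG that ends 14 bases before the start, and its GC content was 47.6%, against 74.0% for VEGFC and 65.2% for KDR. Those ESM1 bases also lie in exons of longer ESM1 transcripts in GENCODE 29. The RefSeq start of VEGFC, at position 176792922, lies upstream of the measured gene, which begins at 176792727 on the minus strand. The bases just after that start were not found in a VEGFC transcript of GENCODE 29. Of 35116 RefSeq windows of the same length, 18.5% held ACGTG, 30.3% CGGAA, 6.57% TGANTCA and 42.6% GGGCGG. A match describes the letters and not a bound site, and no matches overlap in the windows printed.

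Among the ligands, VEGFA (chr6:43770184-43786487, plus strand, hg38), the main driver of vessel sprouting, had 17.3, 16.6 and 16.9 FPKM in TIS CM, 17.1, 21.5 and 19.9 FPKM in Cont CM and 14.6, 13.5 and 11.7 FPKM in No CM. Every TIS CM and every Cont CM library was above every No CM library, while TIS CM and Cont CM overlapped through Cont CM replicate 1. The mean VEGFA level was 16.9 ± 0.358 FPKM in TIS CM, 19.5 ± 2.21 in Cont CM and 13.2 ± 1.46 in No CM (SD, n = 3 each). The ratio of means was 1.28 for TIS CM to No CM, 1.47 for Cont CM to No CM and 0.868 for TIS CM to Cont CM.

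VEGFC (chr4:176683538-176792727, minus strand), the lymphatic ligand, had 41.8, 43.9 and 48.0 FPKM in TIS CM, 68.6, 49.1 and 51.2 FPKM in Cont CM and 36.7, 43.5 and 40.1 FPKM in No CM. The Cont CM libraries lay above both other groups, by a narrow margin in TIS CM, where the highest library was at 48.0 FPKM and the lowest Cont CM library at 49.1 FPKM. TIS CM and No CM overlapped. Cont CM replicate 1 stood above the other 2 Cont CM libraries, and without it the log2 fold change of VEGFC was -0.17 in place of -0.32 for TIS CM against Cont CM, and 0.32 in place of 0.47 for Cont CM against No CM.

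VEGFB (chr11:64234538-64238793, plus strand), a ligand of FLT1, took the other direction, with 58.0, 57.6 and 60.0 FPKM in TIS CM, 49.7, 49.0 and 54.3 FPKM in Cont CM and 55.3, 59.9 and 54.5 FPKM in No CM. Cont CM was the lowest group without overlap, and TIS CM and No CM overlapped. Its ratios of means were 1.15 for TIS CM to Cont CM and 0.900 for Cont CM to No CM. With each library's GC and length trend removed the log2 fold change was 0.06 in place of 0.20 for TIS CM against Cont CM, and -0.03 in place of -0.15 for Cont CM against No CM.

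PGF (chr14:74941834-74955784, minus strand), placental growth factor and another FLT1 ligand, was a low transcript with 0.758, 0.868 and 0.784 FPKM in TIS CM, 0.437, 0.594 and 0.616 FPKM in Cont CM and 0.845, 0.847 and 0.821 FPKM in No CM. It too was lowest in Cont CM without overlap, and TIS CM overlapped No CM. The ratio of means was 1.46 for TIS CM to Cont CM and 0.656 for Cont CM to No CM. Its sums were 524, 357 and 532 fragments in TIS CM, Cont CM and No CM, and the 95% exact Poisson intervals of 480 to 571, 321 to 396 and 488 to 579 fragments cover counting error only. On the recovered fragments, with limma's voom, its log2 fold change was 0.55 in place of 0.32 for TIS CM against Cont CM, and -0.61 in place of -0.35 for Cont CM against No CM.

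The balance between ligands in the deposited FPKM therefore differed between media. VEGFC stood at 0.721, 0.762 and 0.801 of the VEGFB level in TIS CM, at 1.38, 1.00 and 0.944 in Cont CM and at 0.664, 0.726 and 0.736 in No CM. Cont CM was above both other groups in that ratio, and TIS CM overlapped No CM. VEGFA stood at between 0.282 and 0.298 of VEGFB in TIS CM, between 0.345 and 0.439 in Cont CM and between 0.214 and 0.264 in No CM, 3 ranges that did not overlap. The highest values of the 2 ratios, 1.38 and 0.439, were those of Cont CM replicate 1 and Cont CM replicate 2. Both ratios divide by VEGFB, whose fitted differences from Cont CM shrank with the GC and length trend removed. Ratios with that trend removed were not computed.

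**Figure D1:**
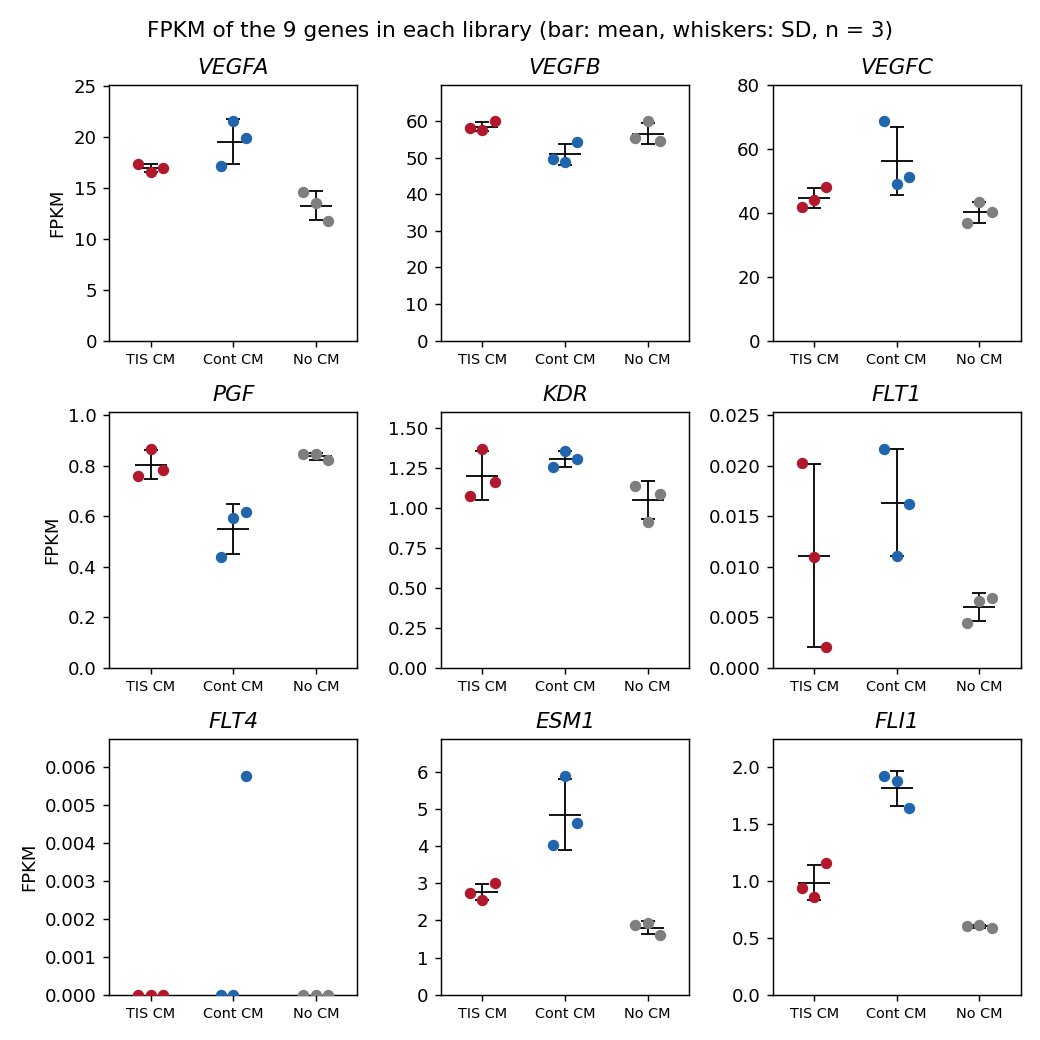
FPKM (vertical axes, linear, each with its own scale from 0) of the 9 genes in each library of TIS CM, Cont CM and No CM, with points for libraries, a bar for the mean and whiskers for the SD of 3 libraries, which are left out for FLT4. ESM1 and FLI1 separate all 3 groups, with TIS CM between Cont CM and No CM, while VEGFB and PGF are lowest in Cont CM, and FLT1 and FLT4 stay below 0.025 FPKM.

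Among the receptors, KDR (chr4:55078259-55125595, minus strand), the main signalling receptor for VEGFA, was the one detected in every library at a level above the expression filter. It had 1.07, 1.37 and 1.16 FPKM in TIS CM, 1.26, 1.36 and 1.31 FPKM in Cont CM and 1.14, 0.913 and 1.09 FPKM in No CM. Cont CM was above No CM without overlap, with a ratio of means of 1.25, and TIS CM overlapped both other groups. The KDR difference of TIS CM against Cont CM, a log2 fold change of -0.09, was no larger than the spread between its replicates.

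FLT1 (chr13:28300344-28495145, minus strand), which binds VEGFA, VEGFB and PGF, had 9, 5 and 1 fragments in TIS CM, 9, 5 and 8 in Cont CM and 2, 3 and 3 in No CM. The summed fragments were 15, 22 and 8 in TIS CM, Cont CM and No CM, with 95% exact Poisson intervals of 8.40 to 24.7, 13.8 to 33.3 and 3.45 to 15.8. These intervals cover counting error only. Cont CM lay above No CM without overlap, its lowest library having 5 fragments and the highest No CM library 3, while TIS CM overlapped both. FLT4 (chr5:180601506-180649624, minus strand), the VEGFC receptor, had 0 fragments in every library except Cont CM replicate 3, which had 2. A count of 0 allows up to 3 fragments, or between 0.00894 and 0.0103 FPKM of FLT4 in the libraries at 0.

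The coreceptors NRP1 and NRP2, neuropilins that bind VEGF ligands beside the kinase receptors, were expressed at higher levels than KDR per length. NRP1 had a mean of 27.1 ± 0.306 FPKM in TIS CM, 25.6 ± 2.96 in Cont CM and 29.4 ± 1.70 in No CM, and NRP2 had 5.13 ± 0.373 FPKM in TIS CM, 5.21 ± 0.406 in Cont CM and 5.23 ± 0.372 in No CM (SD, n = 3 each). Neither passed the limma test in any of the 3 comparisons, with adjusted p of 0.547, 0.572 and 0.109 for NRP1 in TIS CM against Cont CM, TIS CM against No CM and Cont CM against No CM. VEGFD, the other FLT4 ligand, was below the expression filter, with a mean of 0.0291 FPKM in TIS CM, 0 in Cont CM and 0.0131 in No CM.

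ESM1 (chr5:54977864-55022671, minus strand), the endocan gene, had 2.73, 2.56 and 3.00 FPKM in TIS CM, 4.03, 5.89 and 4.63 FPKM in Cont CM and 1.88, 1.94 and 1.60 FPKM in No CM. The 3 groups did not overlap, Cont CM being highest and No CM lowest. The mean was 2.76 ± 0.222 FPKM in TIS CM, 4.85 ± 0.951 in Cont CM and 1.80 ± 0.180 in No CM (SD, n = 3 each), so TIS CM was 1.76-fold below Cont CM and 1.53-fold above No CM. Cont CM replicate 2, the library with the strongest GC trend, held the highest ESM1 value. Without it the log2 fold change of TIS CM against Cont CM was -0.57 in place of -0.70. With the trend removed from all libraries it was -0.65.

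FLI1 (chr11:128686535-128813267, plus strand), the ETS-family regulator of endothelial and blood cell genes, had 0.937, 0.863 and 1.16 FPKM in TIS CM, 1.93, 1.88 and 1.64 FPKM in Cont CM and 0.606, 0.611 and 0.588 FPKM in No CM. As with ESM1, the 3 groups did not overlap and TIS CM lay between the others. The mean was 0.986 ± 0.152 FPKM in TIS CM, 1.81 ± 0.154 in Cont CM and 0.602 ± 0.0121 in No CM (SD, n = 3 each), so TIS CM was 1.84-fold below Cont CM and 1.64-fold above No CM. The sums of 884, 1595 and 524 fragments in TIS CM, Cont CM and No CM had 95% exact Poisson intervals of 827 to 944, 1518 to 1675 and 480 to 571, which do not overlap and cover counting error only. With the GC and length trend removed, the log2 fold change of FLI1 in TIS CM against Cont CM was -0.58 in place of -0.64. Its change in TIS CM against No CM was 0.43, and 0.70 with voom on the recovered fragments.

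The TIS CM means of these genes stood at different points between the other 2 groups. Counted from the No CM mean, the TIS CM mean covered 31.4% of the distance to the Cont CM mean for ESM1, 31.6% for FLI1, 27.4% for VEGFC and 11.9% for PGF. For VEGFA it covered 58.8% and for KDR 59.2%. The TIS CM mean of VEGFB lay outside the other 2, above No CM. In bulk RNA, more cells with a transcript and more transcript per cell cannot be told apart.

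Fold changes were also taken from a limma fit of log2(FPKM + 0.5) across all 13912 genes with a mean of at least 0.5 FPKM, a scale that shrinks the change of genes with low levels. Of the 9 members, 7 entered that fit and FLT1 and FLT4 did not. The log2 fold changes in TIS CM against Cont CM were -0.70 (SE 0.12) for ESM1, -0.64 (SE 0.10) for FLI1, -0.32 (SE 0.12) for VEGFC, -0.19 (SE 0.09) for VEGFA, 0.32 (SE 0.10) for PGF and 0.20 (SE 0.05) for VEGFB. For TIS CM against No CM they were 0.50 (SE 0.12) for ESM1, 0.43 (SE 0.10) for FLI1, 0.35 (SE 0.09) for VEGFA and 0.15 (SE 0.12) for VEGFC. For Cont CM against No CM they were 1.20 (SE 0.12) for ESM1, 1.07 (SE 0.10) for FLI1, 0.54 (SE 0.09) for VEGFA, 0.47 (SE 0.12) for VEGFC and -0.35 (SE 0.10) for PGF. Each group serves in a pair of these comparisons, so the comparisons are not independent of each other.

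The threshold of an adjusted p under 0.05 was passed by 2 members in TIS CM against Cont CM, ESM1 and FLI1, both lower, where 4.48% of all tested genes did (2.9% higher and 1.57% lower). There, 4 members were past the adjusted threshold with limma's voom, which added VEGFB and PGF, both higher. Voom called 1085 of the 13912 tested genes in that comparison. The threshold was passed by 0 members in TIS CM against No CM, where 0.855% of tested genes did (0.403% higher and 0.453% lower). With voom 2 members were past it there, VEGFA and FLI1, beside 245 of the 13912 genes. In Cont CM against No CM it was passed by 5 members, VEGFA, VEGFC, ESM1 and FLI1 higher and PGF lower. Of all tested genes, 16.3% passed there (7.77% higher and 8.56% lower). With voom 5 members were past it in that comparison, beside 2694 of the 13912 genes. Groups that did not overlap were found for 5 members in TIS CM against Cont CM, 3 in TIS CM against No CM and 8 in Cont CM against No CM, FLT1 included, where 28.6%, 24.4% and 33.3% of tested genes had them. Because the members were picked on these contrasts, nothing is read from those counts.

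**Figure D2:**
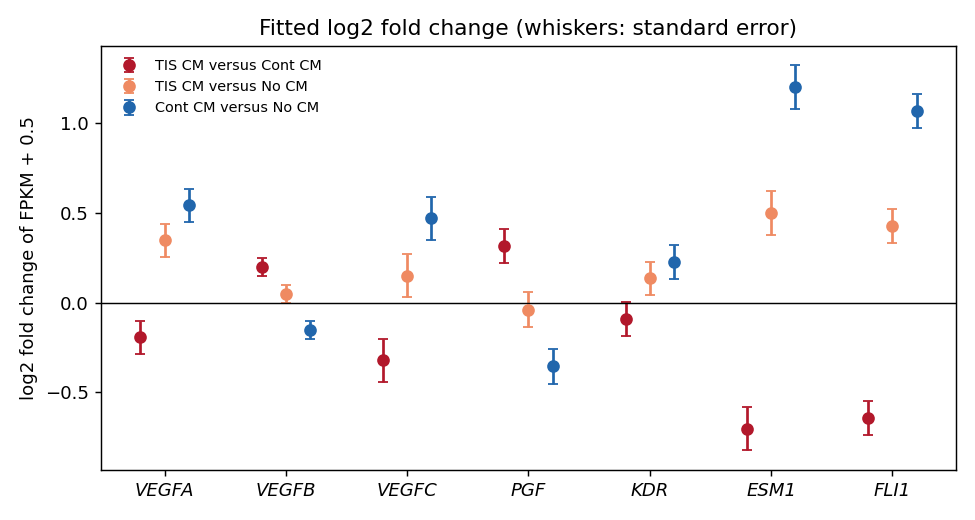
Fitted log2 fold change of FPKM + 0.5 (vertical axis) for the 7 members above the filter (horizontal axis) in TIS CM versus Cont CM, TIS CM versus No CM and Cont CM versus No CM, with whiskers for the standard error. ESM1 and FLI1 have the longest distances from 0 in TIS CM versus Cont CM, at -0.70 and -0.64, and in Cont CM versus No CM, at 1.20 and 1.07, and VEGFB and PGF carry the opposite sign to VEGFA, VEGFC, KDR, ESM1 and FLI1 in both of those comparisons.

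The sign of each of these 7 members' fold changes was the same under all alternatives that gave a value, 19 for each gene, or 18 for PGF. Which members were past the threshold differed between alternatives. Neither ESM1 nor FLI1 was past it in TIS CM against Cont CM with the replicate number as a block, with only the 2 groups compared, or without TIS CM replicate 1, TIS CM replicate 2 or Cont CM replicate 2, and ESM1 was also short of it with no filter and without TIS CM replicate 3. For Cont CM against No CM, VEGFC was short of it with the block, with only the 2 groups, with no filter and without No CM replicate 1 or 3. PGF was short of it there with the block, with only the 2 groups, with no filter and whichever library was left out, and with the GC and length trend removed. As with the counts, nothing about the members is read from these calls, since the same libraries chose them.

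The order of the ligand levels depended on the gene length used. The deposited VEGFA length of 14431 bases is the union of the exons of 32 annotated transcripts, whereas its longest protein-coding transcript has 3535 bases. Per deposited length the mean levels in TIS CM were 58.5 FPKM for VEGFB, 44.6 for VEGFC, 16.9 for VEGFA and 0.803 for PGF. Rescaled to the longest protein-coding transcript, they were 69.1 for VEGFA, 65.5 for VEGFB, 52.3 for VEGFC and 2.49 for PGF. In Cont CM the rescaled means were 79.7 ± 9.0 for VEGFA, 66.0 ± 12.5 for VEGFC and 57.1 ± 3.21 for VEGFB, and in No CM 54.1 ± 5.97 for VEGFA, 47.0 ± 3.97 for VEGFC and 63.4 ± 3.27 for VEGFB (SD, n = 3 each). VEGFA thus ranked below VEGFB and VEGFC in every group by the deposited length, and above them in TIS CM and Cont CM by the other. The VEGFA transcript annotated as principal has 1199 bases. Levels per that length were not computed, so the order may differ again, in No CM as well. The VEGFA and VEGFC levels did not differ beyond their spread in Cont CM on the rescaled scale. A ratio of FPKM of 1 gene between groups does not depend on the length, whereas the filter and the fitted changes of log2(FPKM + 0.5) do, because the filter and the added 0.5 are set on the FPKM scale.

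**Figure D3:**
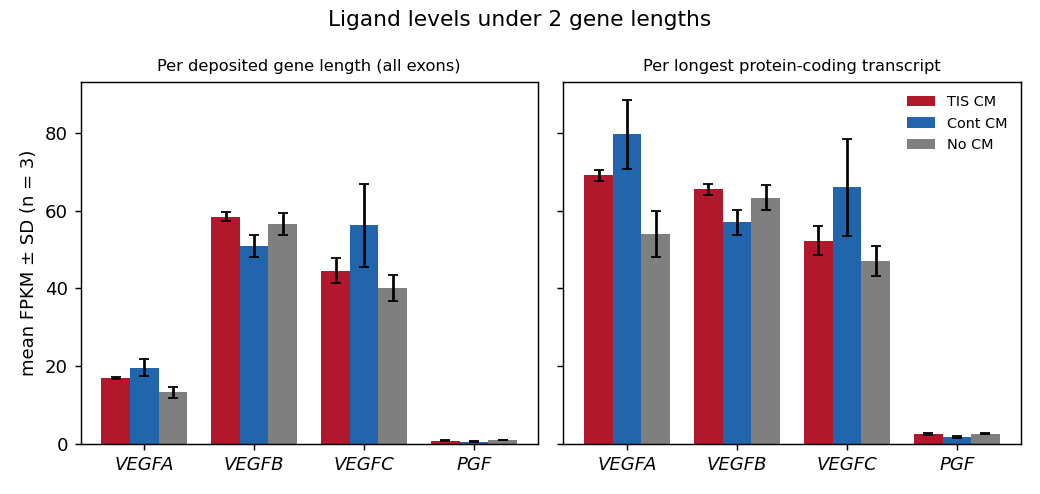
Mean FPKM with SD (vertical axis, n = 3 libraries) of the 4 ligand genes in TIS CM, Cont CM and No CM, per deposited gene length on the left and per longest protein-coding transcript on the right. VEGFA moves to 69.1, 79.7 and 54.1 on the right in TIS CM, Cont CM and No CM, against 16.9, 19.5 and 13.2 on the left.

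An antisense gene of 188 bases, AL136131.3, lies wholly within VEGFA exons. It had between 131 and 183 fragments in TIS CM, between 108 and 241 in Cont CM and between 96 and 134 in No CM, beside 26731, 30541 and 20390 summed VEGFA fragments in the 3 groups. Whether counting used strand is not stated, and reads of the 2 genes cannot be told apart there. SENCR and AP001122.1, which share 162 and 167 exonic bases with FLI1 on the other strand, had at most 0 and 2 fragments in any library.

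Over the 9 libraries ESM1 and FLI1 had a Pearson r of 0.96 on the log2(FPKM + 0.5) scale. VEGFA had r of 0.94 with ESM1 and 0.85 with FLI1, while PGF had r of -0.90 with VEGFC and -0.89 with FLI1. Among 11275 other protein-coding genes, those most like ESM1 were PYGL, RGMB, FGF5 and PUS7L, with r between 0.989 and 0.992. Those most like FLI1 were UAP1, TNPO1, GTPBP4 and CCDC80, with r between 0.987 and 0.993, and those most like VEGFA were GLIPR1, DCBLD2, MARCH4 and TANK, with r between 0.972 and 0.986. Each of these 12 genes had its highest mean in Cont CM and its lowest in No CM, for example 5.26, 7.13 and 4.28 FPKM for the growth factor FGF5 in TIS CM, Cont CM and No CM. The 9 libraries fall into 3 groups and share their scaling, so these values describe the group differences again and carry no test.

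Other genes of vessel biology were read in 8 lists of 152 genes, of which 113 were tested with limma and Benjamini-Hochberg adjustment over all genes. Folds printed for list genes and markers come from that limma fit and are not ratios of the mean FPKM beside them. The scale of the fit shrinks changes at low levels, so for genes with low levels these folds understate the ratio of means. Between TIS CM and Cont CM, 7 of the 113 rose and 8 fell, 13.3% of those tested, where 4.48% of all genes were called (404 higher and 219 lower). Between TIS CM and No CM, 3 rose and 4 fell, 6.19% against 0.855% of all genes, and each call named below for that comparison held in 10 or 12 of 19 alternatives. Between Cont CM and No CM, 22 rose and 17 fell, 34.5% against 16.3% of all genes. With libraries scaled to equal sums, 6 rose and 14 fell, 1 rose and 5 fell, and 22 rose and 20 fell in these comparisons. The lists were chosen with earlier results of these libraries known, and the lists of ligand handling, hypoxia and angiogenesis inhibitors hold genes already seen to move.

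Hypoxia-inducible genes, the set to which VEGFA belongs, had calls below Cont CM in TIS CM and above No CM in both conditioned media. In TIS CM against Cont CM, 0 of 19 tested rose and 3 fell, with a list median of -0.09 on the log2 scale, beside 0.00 over all tested genes. CA9, a carbonic anhydrase of hypoxic cells, had 3.32 ± 0.225 FPKM in TIS CM and 5.67 ± 0.873 in Cont CM and was 1.61-fold lower, past the threshold (limma adjusted p = 0.0157; log2 fold change -0.68, SE 0.10). LOX, which crosslinks collagen, fell 1.30-fold (limma adjusted p = 0.0113). When Cont CM was set against No CM, 5 of the 19 rose and 0 fell (list median 0.10), among them CA9 by 2.04-fold, LOX by 1.59-fold and ADM, the vasodilator adrenomedullin, by 1.36-fold. When TIS CM was set against No CM, 2 of the 19 rose and 0 fell, among them LOX, which rose 1.22-fold (limma adjusted p = 0.0414). HIF1A itself, the oxygen-sensitive subunit of HIF-1, had 94.5 ± 2.13 FPKM in TIS CM, 96.5 ± 11.8 in Cont CM and 103 ± 6.18 in No CM and passed in none of the 3 comparisons. An unadjusted p under 0.05 was reached by 5 of the 19 in TIS CM against Cont CM, by 8 in TIS CM against No CM and by 9 in Cont CM against No CM.

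Genes that VEGF induces in endothelial cells were mostly below the filter, with 7 of 16 tested. In Cont CM against No CM, 4 of the 7 rose, with a list median of 0.37. F3, the coagulation initiator tissue factor, had 502 ± 130 FPKM in Cont CM and 263 ± 29.9 in No CM and rose 1.88-fold (limma adjusted p = 0.00504). PTGS2 (cyclooxygenase-2) rose 1.59-fold, the chemokine receptor CXCR4 1.42-fold and the ERK phosphatase DUSP5 1.29-fold. When TIS CM was set against Cont CM, 2 of the 7 fell, with a list median of -0.20, namely CXCR4 by 1.23-fold and DUSP5 by 1.15-fold (limma adjusted p = 0.0455 and 0.0463). Each was called in 7 of 19 alternatives, so those calls lie close to the threshold. For TIS CM against No CM, 0 of the 7 were called, 4 had an unadjusted p under 0.05 and voom called 0.

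Among 26 other genes of the ETS family, the family of FLI1, 19 were tested, and their direction differed. ETS1, a factor of endothelial and invasive cells, had 46.7 ± 1.79 FPKM in TIS CM, 58.8 ± 4.49 in Cont CM and 42.3 ± 0.495 in No CM. It fell 1.25-fold in TIS CM against Cont CM (limma adjusted p = 0.0180) and rose 1.38-fold in Cont CM against No CM (limma adjusted p = 0.000956). SPDEF, an ETS factor of secretory epithelium, went the other way, with 16.6 ± 0.465 FPKM in TIS CM, 14.3 ± 0.596 in Cont CM and 20.0 ± 0.904 in No CM. It passed in all 3 comparisons, as a rise of 1.15-fold in TIS CM against Cont CM, a fall of 1.20-fold in TIS CM against No CM and a fall of 1.38-fold in Cont CM against No CM, although the first was called in 6 of 19 alternatives. In Cont CM against No CM, ELK3 rose 1.32-fold and ELK4 1.19-fold, the ELK4 call holding in 10 of 19 alternatives, and the epithelial factor ELF3 fell 1.81-fold and ETV7 1.46-fold. The list medians were 0.05, -0.03 and -0.05 in TIS CM against Cont CM, TIS CM against No CM and Cont CM against No CM.

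Among inhibitors of angiogenesis, 11 of 16 were tested, and those called were higher in TIS CM than in Cont CM and lower in each conditioned medium than in No CM. For TIS CM against Cont CM, 3 rose and 0 fell (list median 0.11), in TIS CM against No CM 0 rose and 3 fell (median -0.22), and in Cont CM against No CM 0 rose and 5 fell (median -0.11). SEMA3B, a semaphorin that competes with VEGF for neuropilins, had 8.88 ± 0.415 FPKM in TIS CM, 6.20 ± 0.193 in Cont CM and 11.2 ± 0.314 in No CM. It rose 1.40-fold in TIS CM against Cont CM (limma adjusted p = 0.00363), a call that held in 19 of 19 alternatives, and fell 1.24-fold in TIS CM against No CM. SEMA3F, the related neuropilin-2 ligand, had 1.82 ± 0.247, 1.16 ± 0.126 and 3.01 ± 0.253 FPKM in TIS CM, Cont CM and No CM. Its fitted rise was 1.40-fold in TIS CM against Cont CM, called in 9 of 19 alternatives. Its fitted falls against No CM were 1.52-fold in TIS CM and 2.12-fold in Cont CM. COL18A1, whose product is cut to endostatin, rose 1.26-fold in TIS CM against Cont CM and fell 1.18-fold in TIS CM against No CM and 1.49-fold in Cont CM against No CM, where the metalloproteinase inhibitor TIMP3 fell 1.41-fold.

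Among genes that process or trap VEGF ligands, 12 of 16 were tested. CTSD, a lysosomal protease that can cleave VEGFC, had 180 ± 1.54 FPKM in TIS CM, 117 ± 14.2 in Cont CM and 205 ± 8.73 in No CM. It rose 1.55-fold in TIS CM against Cont CM (limma adjusted p = 0.00997), the single call of the list there, and fell 1.76-fold in Cont CM against No CM. PLAU, the urokinase that activates plasmin, had 219 ± 6.01 FPKM in TIS CM, 213 ± 3.98 in Cont CM and 176 ± 11.8 in No CM, and rose 1.25-fold in TIS CM and 1.21-fold in Cont CM against No CM. In Cont CM against No CM, CCN2 (listed as CTGF), which binds and holds VEGFA, rose 1.25-fold and CCBE1, a cofactor of VEGFC maturation, 1.14-fold, while ADAMTS14, a protease of the family that matures VEGFC, fell 2.09-fold. ADAMTS14 had 0.167, 0.942 and 0.711 FPKM in Cont CM and 2.28, 1.35 and 1.58 FPKM in No CM. Its call held in 13 of 19 alternatives, with log2 fold changes between -1.75 and -0.74. The list medians were 0.06, -0.05 and -0.08 in TIS CM against Cont CM, TIS CM against No CM and Cont CM against No CM.

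The remaining 3 lists had 1, 2 and 1 calls in TIS CM against Cont CM and 4, 5 and 5 in Cont CM against No CM. Of 16 tested signalling proteins downstream of VEGF receptors, PTK2, the focal adhesion kinase, fell 1.14-fold in TIS CM against Cont CM and rose 1.11-fold in Cont CM against No CM, where PTPN11 rose 1.14-fold, CRK 1.10-fold and the receptor phosphatase PTPRJ fell 1.41-fold. Of 12 tested genes of other vessel ligands and receptors, PDGFRB rose 1.30-fold and PDGFC fell 1.10-fold in TIS CM against Cont CM. In Cont CM against No CM, FGF1 rose 1.73-fold, the HGF receptor MET 1.19-fold and PDGFC 1.17-fold, and ANGPT1, the ligand of the endothelial receptor TEK, fell 1.33-fold and PDGFRB 1.29-fold. Of 19 tested enzymes that build chondroitin and dermatan sulfate, the chain type that ESM1 carries, B3GAT3 rose 1.23-fold in TIS CM against Cont CM, and in Cont CM against No CM CSGALNACT2 rose 1.16-fold while CSGALNACT1 fell 1.67-fold, B3GAT3 1.20-fold, CHST14 1.16-fold and CHST15 1.09-fold. Several of these calls lie close to the threshold. Of the 19 alternatives, those in TIS CM against Cont CM held in 7 for PDGFC, 9 for B3GAT3, 10 for PDGFRB and 11 for PTK2, and those in Cont CM against No CM in 7 for CHST14, 8 each for CRK and CHST15 and 12 each for PTK2 and B3GAT3. For TIS CM against No CM, limma called 0 genes in each of these 3 lists, with 1, 3 and 3 at an unadjusted p under 0.05 in signalling, vessel and sulfate lists and 0 called by voom.

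**Figure D4:**
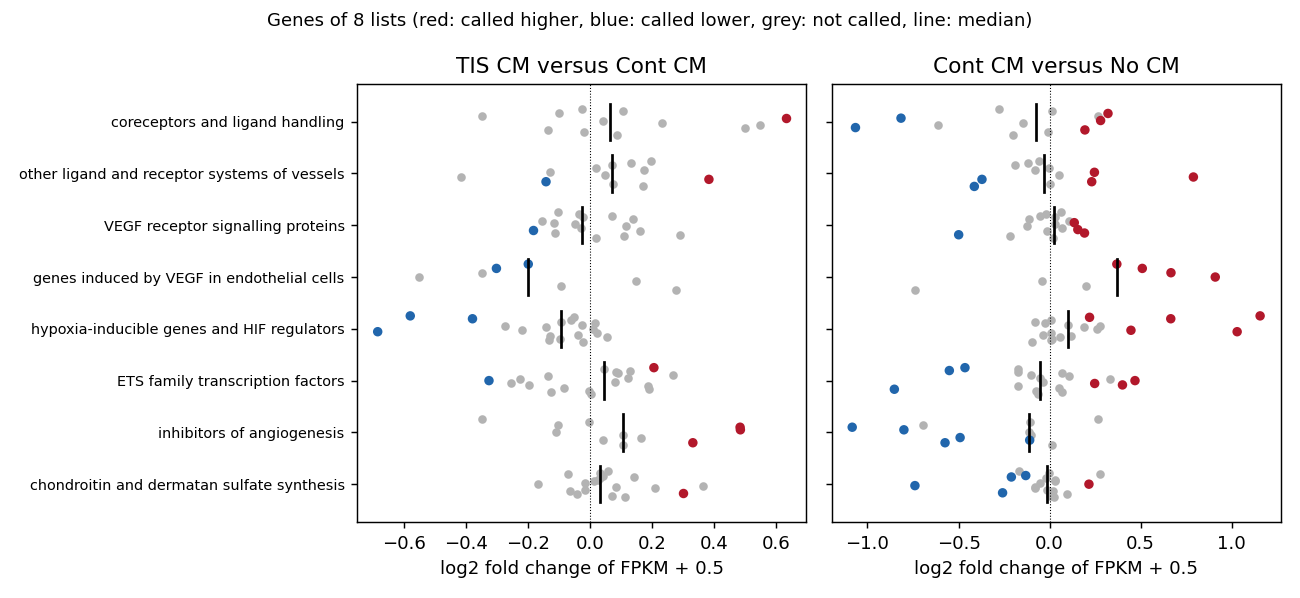
Log2 fold change of FPKM + 0.5 (horizontal axes) of the tested genes of 8 lists (rows) in TIS CM versus Cont CM on the left and Cont CM versus No CM on the right, with a point per gene, red for called higher, blue for called lower, grey for not called and a black line for the list median. Hypoxia-inducible genes have 3 blue points on the left and 5 red points on the right, and inhibitors of angiogenesis have 3 red points on the left and 5 blue points on the right.

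These counts of list calls rested on few libraries. The 15 calls in TIS CM against Cont CM became 1 when either of TIS CM replicates 1 and 2 was left out, 5 without TIS CM replicate 3, 6 without Cont CM replicate 2, and 9 without No CM replicate 1 or replicate 3. The 7 calls in TIS CM against No CM became 13 without Cont CM replicate 1, 4 without Cont CM replicate 3, 2 without No CM replicate 2 and 0 without any 1 of the other TIS CM and No CM libraries. The 39 calls in Cont CM against No CM became 25 without No CM replicate 3. The sign of every called list gene named above was the same under all of its alternatives.

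The name endothelial-type for ESM1 and FLI1 describes where these genes are usually studied, and most endothelial markers were near 0 in the cells measured here. Of 21 endothelial markers, 3 had a mean of at least 0.5 FPKM, namely ESAM at 37.5, EGFL7 at 10.8 and ROBO4 at 7.04 FPKM. PECAM1, NOS3, CD34 and TIE1 were lower but detected in every library, with means of 0.449, 0.348, 0.334 and 0.331 FPKM. The junction gene CDH5 averaged 0.0243 FPKM, VWF 0.00614 FPKM and the endothelial ETS factor ERG 0.00167 FPKM, while MMRN1, SOX17 and PLVAP were at 0 in every library. The summed level of the 21 markers was between 58.0 and 59.4 FPKM in TIS CM, between 54.9 and 58.5 in Cont CM and between 55.2 and 57.3 in No CM, most of it from ESAM. EGFL7 was 1.21-fold higher in TIS CM than in Cont CM (limma adjusted p = 0.0113). In Cont CM against No CM, ROBO4 rose 1.24-fold and EGFL7 fell 1.12-fold (limma adjusted p = 0.0268 and 0.0169). Voom called 1 of the 3 tested endothelial markers in that comparison. How many alternatives held each marker call was not counted. Haematopoietic markers, whose lineage also uses FLI1, were likewise near 0, with PTPRC at 0.0135 FPKM, apart from CD14 at 4.20 FPKM, which fell 1.35-fold in Cont CM against No CM (limma adjusted p = 0.0173). The part of these markers in the ESM1 and FLI1 differences was not tested.

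Markers of the line itself were present. The 6 mesenchymal markers summed to between 878 and 903 FPKM in TIS CM, between 882 and 926 in Cont CM and between 856 and 890 in No CM, and the hormone receptor genes ESR1 and PGR had means of 0.00218 and 0.00120 FPKM. Luminal epithelial markers moved with the groups, with sums of 359 to 369 FPKM in TIS CM, 311 to 350 in Cont CM and 409 to 438 in No CM. Of the 7 tested, 5 fell in Cont CM against No CM, where 8.56% of all tested genes fell. In TIS CM against Cont CM 0 of the 7 were called, and in TIS CM against No CM 1 fell. Their part in the ESM1 and FLI1 differences was not tested. Mitochondrial genes took between 2.95% and 3.07% of fragments in TIS CM, between 2.80% and 3.31% in Cont CM and between 1.85% and 3.15% in No CM.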

How the data were processed

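Poly-A RNA of MDA-MB-231 cells was sequenced in 9 libraries, 3 in each of TIS CM, Cont CM and No CM. Build hg38, DESeq2 1.20.0, featureCounts 1.5.0-p3, fastp and HISAT2 2.0.5 are named in the submitters' processing notes with no roles, and no source used here gives strand use. The authors deposited FPKM for 58735 genes, all found in GENCODE 29 by identifier, with the gene length, which equals the union of exons for the 9 members. FPKM times length gave whole fragments for 100% of values within 0.01, so fragments could be recovered, and the depth above comes from them. How the deposited FPKM were scaled is not stated, and fold changes are read as if most genes were unchanged. The library size implied by the FPKM was between 99.3% and 101.3% of the summed fragments.

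Genes with a mean of at least 0.5 FPKM (13912, of which 11276 protein-coding) were put on the log2(FPKM + 0.5) scale and fitted with limma 3.58.1 in R 4.3.3 over all 9 libraries with an intensity trend. Benjamini-Hochberg adjustment ran over all genes tested, and genes under an adjusted p of 0.05 were called. The members, the gene lists and the markers were chosen with earlier results of these data known. The text names all 9 members, up to 4 called genes per list, direction and comparison with the largest fold change, markers at 0, and the 4 genes most correlated with each of VEGFA, ESM1 and FLI1; NRP1, NRP2, VEGFD, HIF1A and the calls of EGFL7, ROBO4 and CD14 were added after their values were seen, and 1 called list gene is not reported here. Alternatives were another pseudocount, filter or scaling, the replicate number as a block, a fit of only the 2 groups compared and each library left out, and, chosen after seeing the data, limma's voom on recovered fragments and values with the GC and length trend taken out of every library. Poisson intervals are exact at 95%.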

Additional observations from a re-analysis of the deposited data

How the results depend on the processing

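FPKM carry no count model, so the planned edgeR and DESeq2 fits were not run, and voom on the recovered fragments was added after seeing the data. Counts of called genes moved with the setting, while the signs of the 7 members above the filter and of the named list genes did not in any alternative. For TIS CM against Cont CM, 623 genes were called, and 207 with no filter, 1085 with voom, 159 with the GC and length trend removed, 33 with only the 2 groups compared and between 11 and 1084 with 1 library left out. For TIS CM against No CM, 119 were called, and 46 with no filter, 245 with voom, 331 with only the 2 groups and between 9 and 365 with 1 library left out. For Cont CM against No CM, 2272 were called, and 1242 with only the 2 groups and between 1075 and 2770 with 1 library left out. Of the list genes, 15 were called in TIS CM against Cont CM, and 8 with no filter, 5 with the trend removed, 2 with only the 2 groups and between 1 and 21 with 1 library left out. In TIS CM against No CM 7 list genes were called, and 1 with no filter, 12 with only the 2 groups and between 0 and 13 with 1 library left out, and in Cont CM against No CM 39, and between 25 and 44. The calls in TIS CM against Cont CM were 64.8% higher, 53.2% with quantile normalization and 41.8% with equal library sums, and in TIS CM against No CM 47.1% higher, 20.9% with equal sums. Causes were not tested.

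Deviations of same-numbered libraries from their group means had correlations between -0.187 and 0.0838, beside -0.129 to 0.201 for differently numbered ones. The labels do not say whether replicate numbers mark pairs. With 3 libraries per group these correlations cannot decide it. With the number as a block, 126 genes were called in TIS CM against Cont CM, 4 in TIS CM against No CM and 1461 in Cont CM against No CM, and 6 and 0 list genes in TIS CM against Cont CM and TIS CM against No CM. FLT1 and FLT4 had at most 9 and 2 fragments in any library, which limits what can be read from them.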
